A study of Mus musculus with 6 samples.

Results

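The matrix metalloproteases (MMPs), the ADAMTS proteases and the tissue inhibitors of metalloproteases (TIMPs) were examined as 1 group of 43 genes, of which 20 were MMPs, 19 ADAMTS genes and 4 TIMPs. The members were taken by their mouse symbols, matched to the numeric gene IDs of the files through RefSeq's gene table, and all 43 were found among the 36528 gene models measured. The series holds polyA RNA of primary mouse melanocytes, the pigment cells of the skin, in 6 libraries. In 3 of them the genotype label is BAP1 KO, a knockout of the nuclear deubiquitinase BAP1, and in the other 3 it is WT. The labels give skin as the tissue of all 6 and name no allele, recombinase, strain, age or culture, so separate animals or cultures cannot be assumed; a p-value here reflects the spread among 6 libraries, which may be technical alone.

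MMPs are zinc proteases that are made as inactive precursors and cut collagens, gelatins, proteoglycans and growth factor carriers. TIMPs bind their active sites tightly, so the balance of protease and inhibitor sets how much matrix is cut, and in skin this balance is known for its part in wound repair and in the movement of melanocytes and melanoma cells. ADAMTS proteases are secreted relatives that carry thrombospondin repeats. They trim proteoglycans such as versican, process procollagens, or act on fibrillin and von Willebrand factor, and TIMP3 is their main TIMP inhibitor.

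Libraries held 33987690 to 43773769 uniquely aligned reads. Bap1, the targeted gene, was read at 73.6, 77.3 and 72.5 CPM (the reads of a gene scaled to one common library size, with TMM factors) in BAP1 KO-labelled libraries, against 55.7, 55.6 and 55.8 CPM in WT-labelled ones. It was not lower under the knockout label, although counts over a whole gene need not fall when some exons are deleted, so every direction below rests on the labels alone. All 10 melanocyte markers examined were read in every library, and their summed level was 63319 to 64142 CPM in BAP1 KO-labelled libraries, against 6595 to 6689.8 CPM in WT-labelled ones. The summed keratinocyte, fibroblast and smooth muscle markers went the opposite way, although 1 smooth muscle and pericyte marker, Cspg4, was higher at 0.49. The 11 keratinocyte markers stood at 366 to 396 CPM in BAP1 KO-labelled libraries, against 8005 to 8165 CPM in WT-labelled ones, and the 10 fibroblast markers at 51.9 to 57.2 CPM in BAP1 KO-labelled libraries, against 1002 to 1029 CPM in WT-labelled ones. Smooth muscle and pericyte markers summed to 106 to 114 CPM in BAP1 KO-labelled libraries, against 371 to 401 CPM in WT-labelled ones. Schwann cell markers, several of them shared with melanocytes, summed to 2307 to 2337 CPM in BAP1 KO-labelled libraries, against 1240.4 to 1301 CPM in WT-labelled ones, and endothelial markers to 12 to 13.1 CPM in BAP1 KO-labelled libraries, against 9.29 to 10.02 CPM in WT-labelled ones. Kdr gave most of the endothelial sum, at 11.8 CPM on average in BAP1 KO-labelled libraries, against 8.90 CPM in WT-labelled ones. Kdr was higher at 0.41, whereas Pecam1, the only other endothelial marker with enough reads to test, was lower at -0.75 (edgeR adjusted p = 0.0414). In bulk RNA, fewer cells of a type and less RNA per cell cannot be told apart. Keratinocytes and fibroblasts both express MMPs, ADAMTS genes and TIMPs, and the part of these cells in the results below was not tested.

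Most matrix protease genes were lower in BAP1 KO-labelled libraries. Of the 43 members, 36 passed the filter on low counts and were tested over all genes with edgeR, and 26 of these were lower, 5 higher and 5 not past the threshold of adjusted p under 0.05. Lower calls made up 42.1% of all genes tested and 72.2% of the members tested, and higher calls made up 39.4% of all genes and 13.9% of the members. A call in either direction was reached by 81.5% of all genes, so a call as such says little in these libraries. More than 2-fold lower were 19 members (52.8%), against 22.7% of all genes, and more than 4-fold lower 14 members (38.9%), against 14.4% of all genes. The median log2 fold change, BAP1 KO label over WT label, was -1.39 over the members tested and -0.03 over all genes tested. The libraries of the groups did not overlap for 32 members (88.9%), against 82.7% of all genes; all genes split into 40.1% with every BAP1 KO-labelled library higher and 42.6% with every one lower. Mmp25 and Adamts17 passed the filter only through the WT libraries and so could only be found lower. These counts describe the members that were measurable and are not a test of the group.

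**Figure D1:**
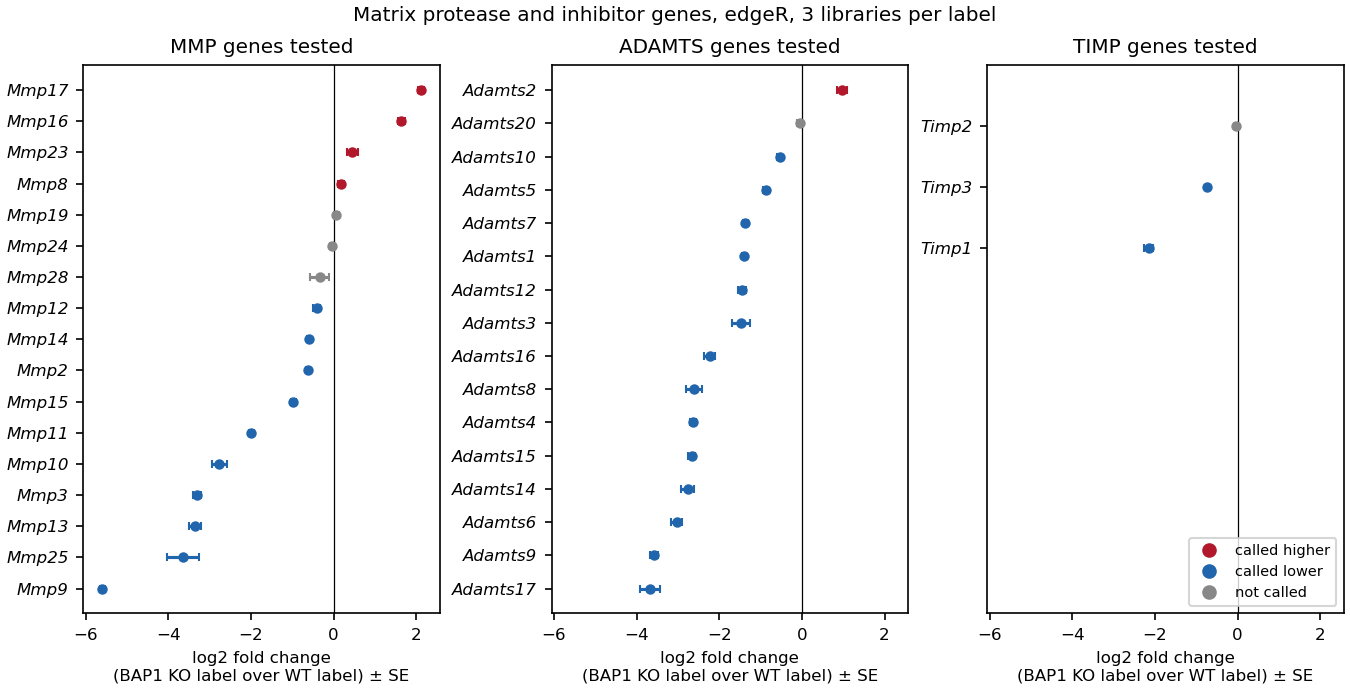
Log2 fold change (BAP1 KO label over WT label, x axis) with its SE for each of the 36 members tested, in panels for 17 MMPs, 16 ADAMTS genes and 3 TIMPs. Red marks called higher, blue called lower and grey not called; Mmp17 at 2.11 and Mmp9 at -5.60 are the ends of the range.

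By transcript level per gene length, a few members carried most of the family totals. The authors' RPKM (reads per kilobase of gene and library depth, adjusted by a size factor) allows levels of different genes to be compared. Mmp14, which encodes the membrane-anchored MT1-MMP, was the most abundant member under both labels, at 198 ± 7.33 RPKM in BAP1 KO-labelled libraries, against 295 ± 16.1 RPKM in WT-labelled ones (SD, n = 3 each). Timp2 and Timp3 came next under both labels. Mmp9 held place 17 of 43 under the BAP1 KO label and place 4 under the WT label. Mmp17 moved the other way, with place 7 under the BAP1 KO label and place 19 under the WT label. A mean of at least 5 RPKM was reached by 9 members under the BAP1 KO label and by 13 under the WT label.

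**Figure D2:**
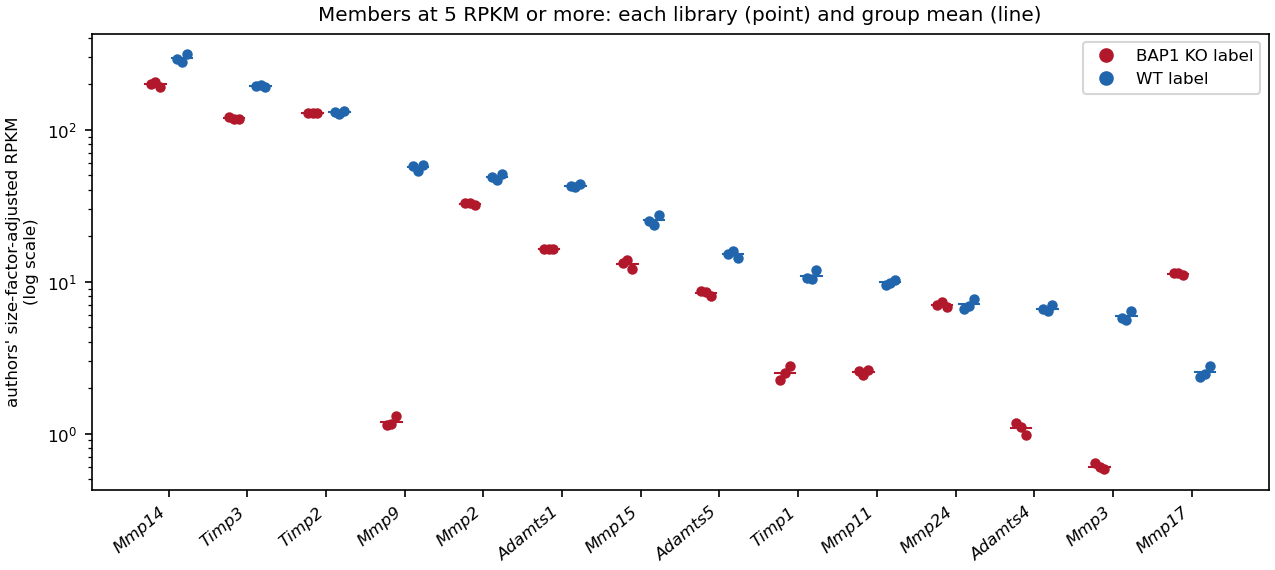
Size-factor-adjusted RPKM on a log scale for the 14 members whose mean reached 5 RPKM in either group; points are libraries and lines are group means, with the BAP1 KO label in red left of the WT label in blue. Mmp9 shows the widest gap, at 1.14 to 1.30 RPKM in BAP1 KO-labelled libraries, against 53.6 to 58.5 RPKM in WT-labelled ones, and Mmp17 alone among the 14 lies clearly higher under the BAP1 KO label.

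The gelatinases, which cut denatured collagen and the type IV collagen of basement membranes, were both lower. Mmp9 (gelatinase B, gene ID 17395, chromosome 2, 164940326 to 164955850 on GRCm38) was read at 4.07, 4.15 and 4.68 CPM in BAP1 KO-labelled libraries, against 212, 200.4 and 212 CPM in WT-labelled ones. The groups were far apart, and Mmp9 fell 48.5-fold (log2 fold change -5.60, SE 0.062, edgeR adjusted p = 1.62e-13), which was the lowest value of all members tested. Mmp2 (gelatinase A) was read at 111, 111 and 108 CPM in BAP1 KO-labelled libraries, against 169, 165 and 174 CPM in WT-labelled ones. It fell by 1.54-fold only (log2 -0.62, SE 0.038, edgeR adjusted p = 6.57e-08), although the groups did not overlap. Keratinocytes are a known source of Mmp9 and fibroblasts of Mmp2. Neutrophils store Mmp9, Mmp8 and Mmp25 in granules. Of the 8 neutrophil markers examined, 6 (Ngp, Camp, Elane, Mpo, Ly6g and Retnlg) were at 0 to 5 reads in every library. The other 2, S100a8 and S100a9, which keratinocytes also make, carried the summed neutrophil list, at 1.32 to 1.98 CPM in BAP1 KO-labelled libraries, against 62.8 to 70.02 CPM in WT-labelled ones.

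Stromelysins and the collagenase Mmp13 were lower, whereas the collagenase Mmp8 was called slightly higher. Stromelysins degrade proteoglycans and non-fibrillar collagens and can activate other MMP precursors. Mmp3 (stromelysin 1) was read at 1.21, 1.15 and 1.12 CPM in BAP1 KO-labelled libraries, against 11.2, 11.1 and 12.3 CPM in WT-labelled ones (log2 -3.31, SE 0.10, edgeR adjusted p = 1.66e-10). Mmp10 (stromelysin 2) was read at 0.701, 0.891 and 1.37 CPM in BAP1 KO-labelled libraries, against 7.31, 6.44 and 6.26 CPM in WT-labelled ones (log2 -2.76, SE 0.18, edgeR adjusted p = 8.19e-08). Both fell well below every WT library, by 9.91-fold and 6.78-fold. About 8.4% of the 50-base sequences of Mmp3 and of Mmp10 are shared between them, which unique alignment leaves uncounted. Mmp11 (stromelysin 3, which the protease furin activates inside the cell) was read at 6.25, 5.98 and 6.47 CPM in BAP1 KO-labelled libraries, against 23.8, 24.9 and 25.3 CPM in WT-labelled ones, and fell 3.96-fold (SE of log2 0.064, edgeR adjusted p = 2.74e-10). Mmp13 (collagenase 3, the main collagenase of rodents) was read at 0.647, 0.844 and 0.613 CPM in BAP1 KO-labelled libraries, against 7.48, 7.71 and 6.5 CPM in WT-labelled ones, and fell 10.1-fold (SE of log2 0.14, edgeR adjusted p = 2.91e-09). Mmp8 (collagenase 2) stood at 11.3, 11 and 11.8 CPM in BAP1 KO-labelled libraries, against 9.52, 10.7 and 9.60 CPM in WT-labelled ones. The groups of Mmp8 barely parted, at a log2 fold change of 0.19 (SE 0.073, edgeR adjusted p = 0.0315). The call was lost under 6 of 12 alternatives, with adjusted p from 0.0094 to 0.161 over all of them; it was lost without BAP1 KO replicate 1 (0.061), BAP1 KO replicate 3 (0.0773) or WT replicate 1 (0.0675).

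Mmp13, Mmp3, Mmp10 and Mmp8 lie in 1 gene cluster on chromosome 9, with Mmp12, Mmp20 and Mmp7 and with 3 MMP genes that are not members, Mmp1a, Mmp1b and Mmp27. On GRCm38 the 10 genes span 427 kb, from 7272514 to 7699585. The cluster did not move as a block. Next to Mmp13 and Mmp3, the macrophage elastase Mmp12 was called lower too but by far less, at 3.48, 3.66 and 3.46 CPM in BAP1 KO-labelled libraries, against 4.57, 4.87 and 4.61 CPM in WT-labelled ones (log2 -0.41, SE 0.09, edgeR adjusted p = 0.00168). The groups of Mmp12 did not overlap, and its call held in all 11 alternatives that tested it. Macrophage markers did not move as one: 6 of 8 were higher and 2 lower, these being Cd14 at -4.32 and Adgre1 at -0.83. Their sum was 232 to 240.5 CPM in BAP1 KO-labelled libraries, against 58.2 to 63.6 CPM in WT-labelled ones, of which Lyz2 gave 177 CPM on average in BAP1 KO-labelled libraries, against 22.6 CPM in WT-labelled ones. Beyond Mmp10, Mmp8 was at 0.19 and its neighbour Mmp27, which starts 2.91 kb after Mmp8 ends, was higher at 1.03 (SE 0.29, edgeR adjusted p = 0.00716), though at under 1 CPM in every library. Mmp7 (matrilysin, with 11.5% of its exons overlapping another transcript) had 0 reads summed over BAP1 KO-labelled libraries, against 7 over WT-labelled ones. Mmp20 (enamelysin of teeth), Mmp1a and Mmp1b had 1, 3 and 0 reads summed over BAP1 KO-labelled libraries, against 1, 2 and 16 over WT-labelled ones; 10.8% of the exons of Mmp1b overlap Mmp12 and 19.7% of its 50-base sequences are shared with Mmp1a. These 4 genes were not tested, and no fold is given at such depth.

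**Figure D3:**
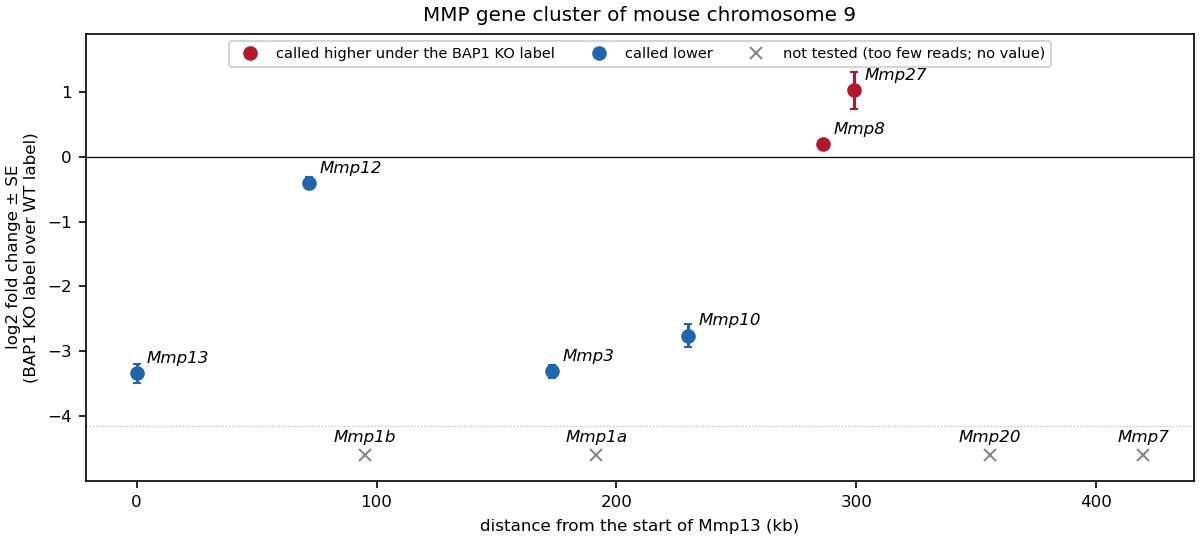
Log2 fold change (BAP1 KO label over WT label) with its SE for the MMP genes of the chromosome 9 cluster, against distance in kb from the start of Mmp13; crosses under the dotted line mark genes with too few reads to test and carry no value. Mmp13, Mmp3 and Mmp10 lie near -3, Mmp12 at -0.41, Mmp8 at 0.19 and Mmp27 at 1.03.

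The promoter sequences of this cluster are shown because neighbours with like values and unlike values can be compared there. Each run is the 150 bases before the RefSeq gene start on GRCm38.p6 (chromosome 9, plus strand, 5′ to 3′). Capitals mark 2 motifs, TGANTCA and TATAAA (the TATA box). With N as any base, TGANTCA takes in the site of AP-1, the FOS and JUN dimer, but is wider than it. Both motifs were searched on both strands and did not overlap each other here. The windows are chr9:7272364-7272513 for Mmp13, chr9:7445672-7445821 for Mmp3, chr9:7502192-7502341 for Mmp10 and chr9:7558279-7558428 for Mmp8.
Mmp13: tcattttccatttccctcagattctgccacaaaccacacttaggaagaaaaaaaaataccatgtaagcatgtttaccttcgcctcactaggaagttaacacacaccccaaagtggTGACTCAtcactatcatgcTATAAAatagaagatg
Mmp3: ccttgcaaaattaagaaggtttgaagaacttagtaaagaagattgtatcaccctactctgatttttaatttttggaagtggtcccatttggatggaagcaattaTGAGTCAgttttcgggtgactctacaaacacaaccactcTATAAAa
Mmp10: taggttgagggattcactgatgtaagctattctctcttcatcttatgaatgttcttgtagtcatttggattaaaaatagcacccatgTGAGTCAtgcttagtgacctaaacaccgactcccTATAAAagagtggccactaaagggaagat
Mmp8: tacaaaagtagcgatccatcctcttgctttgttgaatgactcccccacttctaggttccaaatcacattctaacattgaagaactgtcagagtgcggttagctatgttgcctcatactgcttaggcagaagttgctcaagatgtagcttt
The promoters of Mmp13, Mmp3 and Mmp10, which fell 10.1-fold, 9.91-fold and 6.78-fold, hold both motifs, and that of Mmp8 holds neither in the run shown (a TATAAA on the opposite strand crosses its gene start). RefSeq's table, which gives 250 bases before to 50 after a start, had 32 windows for 29 of the 43 members. TGANTCA was found in windows of 6 members and in 7.81% of all 32851 windows, and both motifs together in windows of the same 6 members and in 1.54% of all windows. All 6 lie in the chromosome 9 cluster, where 8 of the 10 genes had both motifs, the others being Mmp8 and Mmp27; none of 22 members outside the cluster had TGANTCA. Mmp12, at a log2 fold change of -0.41, carried it at 1 of its 2 listed starts. Members with no window in that table were Mmp2, Mmp9, Mmp16, Mmp17, Mmp19, Adamts4, Adamts5, Adamts6, Adamts7, Adamts8, Adamts10, Adamts15, Adamts16 and Adamts19. A match is a description of letters and no evidence of binding.

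Membrane-type MMPs, which act at the cell surface, went both ways. Mmp14, which cuts collagen at the surface and activates the Mmp2 precursor, was read at 543, 568 and 528 CPM in BAP1 KO-labelled libraries, against 822, 800.4 and 867 CPM in WT-labelled ones, and fell 1.52-fold (SE of log2 0.042, edgeR adjusted p = 1.71e-07). Mmp15 (MT2-MMP) was read at 60.2, 63.1 and 55.3 CPM in BAP1 KO-labelled libraries, against 115, 111 and 125 CPM in WT-labelled ones, and fell 1.97-fold (SE of log2 0.060, edgeR adjusted p = 6.61e-08). In both genes every library labelled BAP1 KO lay below every library labelled WT. Mmp17 (MT4-MMP, held by a lipid anchor) was read at 41.9, 42.2 and 40.8 CPM in BAP1 KO-labelled libraries, against 8.86, 9.49 and 10.5 CPM in WT-labelled ones, and rose 4.33-fold (SE of log2 0.064, edgeR adjusted p = 1.67e-10). Mmp16 (MT3-MMP) was read at 15.4, 15.4 and 16.1 CPM in BAP1 KO-labelled libraries, against 5.26, 5.35 and 4.46 CPM in WT-labelled ones, and rose 3.12-fold (SE of log2 0.081, edgeR adjusted p = 1.00e-08). Mmp17 and Mmp16 were the only members called more than 2-fold higher, where 13.9% of all genes were. They moved in the direction of the summed melanocyte markers given above. Mmp24 (MT5-MMP) did not pass the threshold, at 32.0, 33.4 and 31.3 CPM in BAP1 KO-labelled libraries, against 30.8, 32.9 and 35.5 CPM in WT-labelled ones (log2 -0.04, SE 0.060, edgeR adjusted p = 0.587); 13.6% of its exons overlap another transcript. Mmp25 (MT6-MMP) was lower but had only 6 reads summed over BAP1 KO-labelled libraries, against 78 over WT-labelled ones. Mmp25 passed the filter only through the WT libraries, so it could only be found lower.

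The remaining MMPs differed little or were hardly read. Mmp19 stood at 12.3, 12.9 and 12.5 CPM in BAP1 KO-labelled libraries, against 12.1, 12.4 and 11.5 CPM in WT-labelled ones (log2 0.07, SE 0.063, edgeR adjusted p = 0.336), with 28.3% of its exons overlapping Tmem198b. Mmp23 was called higher at 0.46 (SE 0.14, edgeR adjusted p = 0.0109), at 2.65 to 2.95 CPM in BAP1 KO-labelled libraries, against 1.78 to 2.45 CPM in WT-labelled ones. Mmp28 (epilysin, known from keratinocytes, with 12% of its exons overlapping another transcript) overlapped between the groups, at 0.890 to 1.41 CPM in BAP1 KO-labelled libraries, against 1.09 to 1.75 CPM in WT-labelled ones. Mmp21 had 4 reads summed over BAP1 KO-labelled libraries, against 2 over WT-labelled ones and was not tested.

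The ADAMTS genes leaned more to one side than the MMPs: 14 of 16 tested were lower, 1 higher and 1 not past the threshold. Of all genes tested, 42.1% were called lower and 39.4% higher. Adamts17, among the 14, passed the filter only through the WT libraries and could only be found lower. The median log2 fold change was -1.85 over the ADAMTS genes tested, against -0.60 over the 17 MMPs tested. The difference between the families was not tested. Among the proteoglycan-cleaving ADAMTS genes, which act on aggrecan and versican, 6 of 7 were lower. Adamts9 was read at 2.72, 2.49 and 1.92 CPM in BAP1 KO-labelled libraries, against 28.9, 28.9 and 27.5 CPM in WT-labelled ones, and fell 11.9-fold (SE of log2 0.096, edgeR adjusted p = 6.08e-11), with 12% of its exons overlapping another transcript. Adamts4 (aggrecanase 1) was read at 4.56, 4.34 and 3.85 CPM in BAP1 KO-labelled libraries, against 26.0, 25.9 and 27.5 CPM in WT-labelled ones, and fell 6.22-fold (SE of log2 0.075, edgeR adjusted p = 9.32e-11). The groups of both genes lay far apart. Adamts1, the most abundant ADAMTS gene under both labels by RPKM, was read at 85.2, 84.7 and 85.6 CPM in BAP1 KO-labelled libraries, against 225, 224 and 230.0 CPM in WT-labelled ones, and fell 2.66-fold (SE of log2 0.036, edgeR adjusted p = 3.81e-11). Adamts5 (aggrecanase 2) was read at 73.8, 73.6 and 68.8 CPM in BAP1 KO-labelled libraries, against 132, 142 and 124 CPM in WT-labelled ones, and fell 1.84-fold (SE of log2 0.056, edgeR adjusted p = 9.07e-08). Both were lower in every library labelled BAP1 KO.

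Adamts15 was read at 2.45, 2.30 and 2.76 CPM in BAP1 KO-labelled libraries, against 16.6, 15.7 and 15.3 CPM in WT-labelled ones, and fell 6.36-fold (SE of log2 0.088, edgeR adjusted p = 3.12e-10). Its neighbour on chromosome 9, Adamts8, 20.1 kb away, was lower by a like amount (log2 -2.61, SE 0.18, edgeR adjusted p = 2.06e-07) but stayed under 3 CPM in every library, and 10.6% of its exons overlap another transcript. Adamts1 and Adamts5 are also neighbours, 55.04 kb apart on chromosome 16, and differed by log2 -1.41 and -0.88. Adamts20, whose loss in mice gives the belted pattern of white hair through failing melanoblast survival, did not pass the threshold, at 25.9, 24.7 and 25.5 CPM in BAP1 KO-labelled libraries, against 25.7, 28.2 and 25.3 CPM in WT-labelled ones (log2 -0.06, SE 0.057, edgeR adjusted p = 0.373). The groups of Adamts20 overlapped, and it was called lower with the stricter count filter alone (adjusted p = 0.0487).

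The procollagen N-propeptidases, which remove the amino-terminal propeptide of fibrillar procollagens, went both ways. Adamts14 was read at 1.27, 1.10 and 0.725 CPM in BAP1 KO-labelled libraries, against 7.13, 6.62 and 7.42 CPM in WT-labelled ones, and fell 6.79-fold (SE of log2 0.15, edgeR adjusted p = 2.19e-08). Adamts3 was lower at -1.48 (SE 0.22, edgeR adjusted p = 8.56e-05), at 0.588 ± 0.0673 CPM in BAP1 KO-labelled libraries, against 1.63 ± 0.365 CPM in WT-labelled ones (SD, n = 3 each). Adamts2 was the 1 ADAMTS gene called higher, at 3.91, 3.85 and 3.46 CPM in BAP1 KO-labelled libraries, against 2.19, 1.91 and 1.67 CPM in WT-labelled ones (log2 0.97, SE 0.13, edgeR adjusted p = 3.43e-05). The groups were apart in all 3, at low levels. Fibrillar collagen transcripts are themselves among the fibroblast markers whose sum is given above.

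Of the other 9 ADAMTS genes, 6 were tested and all 6 were lower, where 42.1% of all genes tested were called lower. Adamts6 was read at 0.944, 1.22 and 1.14 CPM in BAP1 KO-labelled libraries, against 9.44, 9.71 and 7.95 CPM in WT-labelled ones, and fell 8.13-fold (SE of log2 0.13, edgeR adjusted p = 3.36e-09). Its close relative Adamts10, which binds fibrillin microfibrils, stood at 12.2, 12.6 and 12.4 CPM in BAP1 KO-labelled libraries, against 17.5, 17.7 and 18.7 CPM in WT-labelled ones, and fell 1.45-fold (SE of log2 0.059, edgeR adjusted p = 7.96e-06). This pair of relatives thus differed widely in the size of the change. Adamts7 was read at 5.42, 5.82 and 5.94 CPM in BAP1 KO-labelled libraries, against 14.7, 14.4 and 15.1 CPM in WT-labelled ones (log2 -1.36, SE 0.070, edgeR adjusted p = 1.33e-08). Adamts12 was read at 2.72, 3.28 and 2.87 CPM in BAP1 KO-labelled libraries, against 8.08, 8.32 and 7.78 CPM in WT-labelled ones (log2 -1.44, SE 0.095, edgeR adjusted p = 1.11e-07). These 2, both known to cut cartilage oligomeric matrix protein, were lower to a like extent. Adamts16 was read at 1.08, 1.10 and 1.0 CPM in BAP1 KO-labelled libraries, against 5.70, 4.39 and 4.97 CPM in WT-labelled ones, and fell 4.70-fold (SE of log2 0.14, edgeR adjusted p = 7.79e-08). Adamts17 was lower at -3.68 (SE 0.24), with 18 reads summed over BAP1 KO-labelled libraries, against 231 over WT-labelled ones. Adamts17 passed the filter only through the WT libraries, so it could only be found lower. Adamts13, which cuts von Willebrand factor, and Adamts18 and Adamts19 had at most 20 reads in any library and were not tested.

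Of the inhibitors, 2 of the 3 TIMPs tested were lower and none was higher, where 42.1% of all genes tested were lower and 39.4% higher. With 3 genes tested, these counts say little. Timp3, which is held in the matrix and inhibits ADAMTS proteases as well as MMPs, was read at 598, 581 and 587 CPM in BAP1 KO-labelled libraries, against 974, 1008 and 951 CPM in WT-labelled ones. It fell 1.66-fold (log2 -0.73, SE 0.034, edgeR adjusted p = 6.12e-09); 21.3% of its exons overlap transcripts of Syn3. Timp1, an inducible inhibitor that binds the Mmp9 precursor, was read at 2.13, 2.37 and 2.62 CPM in BAP1 KO-labelled libraries, against 10.2, 10.1 and 11.3 CPM in WT-labelled ones, and fell 4.44-fold (log2 -2.15, SE 0.10, edgeR adjusted p = 5.76e-09). Both lay below every WT library. Timp2, which inhibits Mmp14 and also takes part in the activation of Mmp2, stood at 496, 495 and 497 CPM in BAP1 KO-labelled libraries, against 510.1, 509 and 514 CPM in WT-labelled ones (log2 -0.04, SE 0.031, edgeR adjusted p = 0.206). The libraries of Timp2 did not overlap but the difference was small, and it was called lower when scaled by library totals (adjusted p = 0.0125) or with the stricter count filter (adjusted p = 0.00257). Timp4 had 1 read summed over BAP1 KO-labelled libraries, against 3 over WT-labelled ones and was not tested.

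Set against the inhibitors, summed protease transcripts were lower in BAP1 KO-labelled libraries. The summed MMP level was 281, 289.5 and 272 RPKM in BAP1 KO-labelled libraries, against 467, 445 and 492 RPKM in WT-labelled ones. The summed ADAMTS level was 34.1, 33.8 and 33.2 RPKM in BAP1 KO-labelled libraries, against 83.2, 82.4 and 84.1 RPKM in WT-labelled ones. The summed TIMP level was 253, 248 and 249.8 RPKM in BAP1 KO-labelled libraries, against 334, 333 and 335 RPKM in WT-labelled ones. All 3 sums were lower under the BAP1 KO label, the ADAMTS sum by the largest factor. MMP over TIMP transcripts came to 1.12 ± 0.0411 in BAP1 KO-labelled libraries, against 1.40 ± 0.0669 in WT-labelled ones, and ADAMTS over TIMP transcripts to 0.135 ± 0.00176 in BAP1 KO-labelled libraries, against 0.249 ± 0.00202 in WT-labelled ones (SD, n = 3 each). Neither ratio overlapped between the groups, and no test was made of these sums. Mmp14 made up 70.4% to 71.1% of the MMP sum in BAP1 KO-labelled libraries, against 62.8% to 63.4% in WT-labelled ones, whereas Mmp9 made up 0.398% to 0.478% in BAP1 KO-labelled libraries, against 11.9% to 12.4% in WT-labelled ones. Timp2 and Timp3 together made up over 96% of the TIMP sum in every library.

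**Figure D4:**
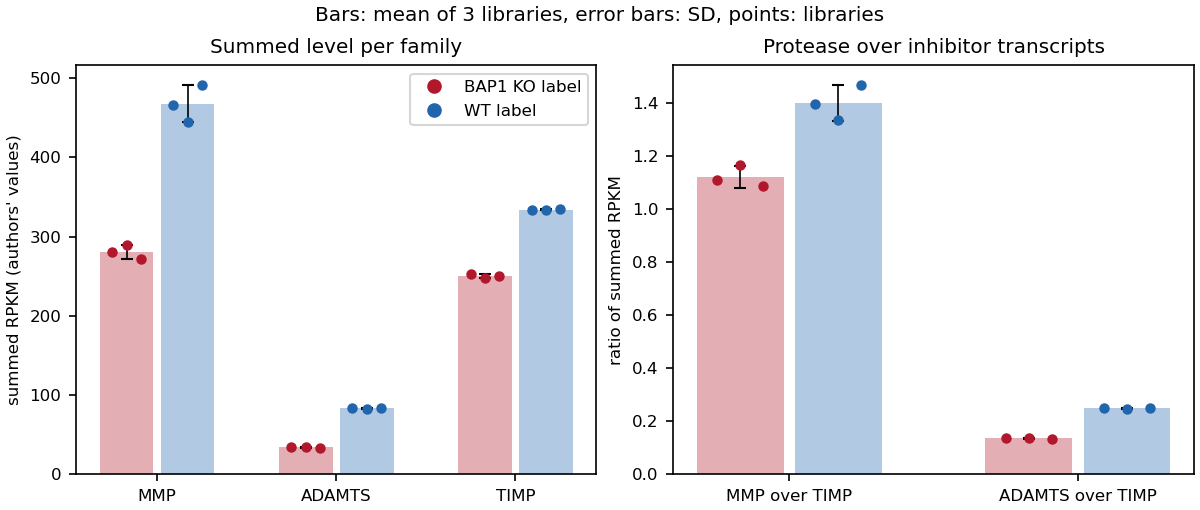
Left, summed size-factor-adjusted RPKM of the MMP, ADAMTS and TIMP genes; right, ratios of these sums. Bars are means of 3 libraries, error bars SD and points libraries, with the BAP1 KO label in red left of the WT label in blue; the MMP over TIMP ratio is 1.12 in BAP1 KO-labelled libraries, against 1.40 in WT-labelled ones.

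Known protease and inhibitor partners gave unlike ratios. The ratio of Mmp9 to Timp1 RPKM was 0.501, 0.460 and 0.469 in BAP1 KO-labelled libraries, against 5.48, 5.19 and 4.92 in WT-labelled ones. That of Mmp14 to Timp2 was 1.53, 1.60 and 1.48 in BAP1 KO-labelled libraries, against 2.25, 2.19 and 2.35 in WT-labelled ones. That of Mmp14 to Timp3 was 1.64, 1.76 and 1.62 in BAP1 KO-labelled libraries, against 1.52, 1.43 and 1.64 in WT-labelled ones. Under the BAP1 KO label the Mmp9 to Timp1 ratio was far lower, the Mmp14 to Timp2 ratio was lower by less, and the Mmp14 to Timp3 ratio overlapped between the groups. RNA ratios do not give protein or activity ratios.

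Inhibitors outside the TIMP family included the sharpest rise in the pathway lists. Reck, a membrane-anchored inhibitor of Mmp2, Mmp9 and Mmp14, was read at 119, 123 and 121 CPM in BAP1 KO-labelled libraries, against 8.05, 7.23 and 7.83 CPM in WT-labelled ones. It rose 15.7-fold (log2 3.97, SE 0.053, edgeR adjusted p = 3.95e-13) while Mmp9, Mmp2 and Mmp14 fell in the same libraries. Of the 7 non-TIMP inhibitors and clearance genes listed, 5 were tested, 1 was higher, 2 lower and 2 not past the threshold. Over all genes tested, 39.4% were called higher and 42.1% lower. The 2 lower ones, named after their values were seen, were the testican Spock3 (-4.22, under 6 CPM in every library) and the protease inhibitor Tfpi2. Tfpi2 had 4 reads summed over BAP1 KO-labelled libraries, against 259 over WT-labelled ones, and passed the filter only through the WT libraries, so it could only be found lower.

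Most genes that activate MMP precursors were lower. Of 10 plasminogen activation genes 9 were tested, 8 were lower and 1 was higher, where 42.1% of all genes tested were lower and 39.4% higher. Serpinf2, among the lower ones, passed the filter only through the WT libraries and could only be found lower. Plau (urokinase, which turns plasminogen into plasmin) was read at 21.7, 21.1 and 21.6 CPM in BAP1 KO-labelled libraries, against 1020.3, 1011 and 1019 CPM in WT-labelled ones, and fell 47.4-fold (SE of log2 0.039, edgeR adjusted p = 3.51e-14). Its receptor Plaur fell to 9.03 ± 0.0991 CPM in BAP1 KO-labelled libraries, against 144 ± 4.05 CPM in WT-labelled ones, and its inhibitor Serpinb2 to 6.39 ± 0.241 CPM in BAP1 KO-labelled libraries, against 109.8 ± 10.3 CPM in WT-labelled ones (SD, n = 3 each); 12.4% of the exons of Serpinb2 overlap Serpinb10. Protease, receptor and inhibitor of this system thus fell together. The 1 higher gene, named after its values were seen, was the tissue activator Plat at 0.26 (SE 0.039). Among the 5 proprotein activators, 3 were lower and 1, Pcsk5 at 0.52, was higher (named after its values were seen). St14 (matriptase, an epithelial surface protease) fell 26.9-fold and Pcsk6 7.70-fold, whereas Furin, which activates Mmp14 and Mmp11, fell 1.57-fold.

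The remaining lists differed in direction. Of 10 other MMP and ADAMTS-like genes 7 were tested, and 6 were called higher and 1 lower, where 39.4% of all genes were called higher. Their median log2 fold change was 1.72. Among the 6 were the MMP gene Mmp27 and Adamtsl3, both under 1 CPM in every library. ADAMTS-like proteins resemble ADAMTS proteases but lack the protease domain. Papln (papilin) was read at 109, 114 and 101 CPM in BAP1 KO-labelled libraries, against 14.7, 13.7 and 14.2 CPM in WT-labelled ones, and rose 7.61-fold (SE of log2 0.059, edgeR adjusted p = 5.96e-12). Adamtsl4, which binds fibrillin, rose to 441 ± 20.4 CPM in BAP1 KO-labelled libraries, against 114 ± 6.90 CPM in WT-labelled ones, while Thsd4 was lower at -2.53. The median over these genes was thus of the opposite sign to that over the ADAMTS proteases (-1.85), a difference that was not tested. Of 8 ADAM proteases tested 5 were lower and 3 higher, with Adam12 lower at -3.85, Adam8 at -3.53 and Adam19 at -2.49 (10.1% of the exons of Adam19 overlap another transcript). The higher ones, named after their values were seen, were the sheddases Adam10 at 1.55 and Adam9 at 0.95 and the low-level Adam33 at 1.69. Of 4 genes tested among the astacin proteases and their enhancers, 3 were lower and 1 higher. Bmp1, the procollagen C-proteinase, fell 4.6-fold and the C-proteinase enhancer Pcolce2 3.03-fold, while the enhancer Pcolce rose 6.0-fold. All 3 surface inducers and anchors were lower, Sdc1 at -4.79, Cd44 at -1.49 and Bsg, an inducer of MMPs, at -0.57. Of 9 proteoglycan and glycoprotein substrates tested 7 were lower and 2 not past the threshold; among the lower ones Lum and Ncan passed the filter only through the WT libraries and could only be found lower. Vcan, the versican that ADAMTS proteases cleave, fell 12-fold to 29.8 ± 1.12 CPM in BAP1 KO-labelled libraries, against 359 ± 21.8 CPM in WT-labelled ones, and the small proteoglycans Dcn and Bgn, the first of them also a fibroblast marker here, were lower at -2.80 and -2.78. Lower calls made up 42.1% of all genes tested, and the summed keratinocyte and fibroblast markers were lower in the same libraries.

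**Figure D5:**
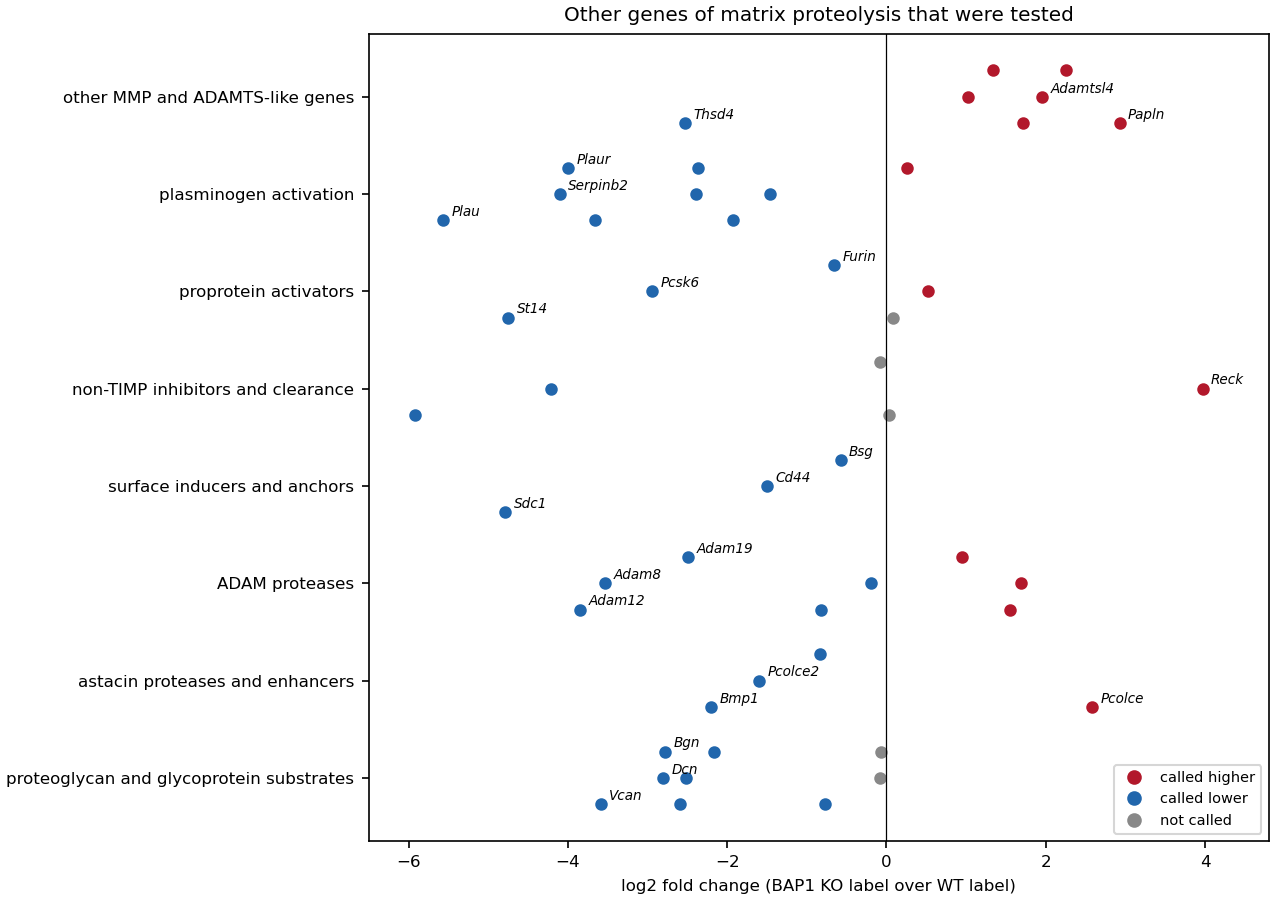
Log2 fold change (BAP1 KO label over WT label) of the tested genes of 8 lists of matrix proteolysis; red marks called higher, blue called lower and grey not called, and points are set apart vertically only to be legible. Plau lies at -5.57 and Reck at 3.97, and 6 of 7 other MMP and ADAMTS-like genes lie above 0.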

How the data were processed

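PolyA RNA of primary mouse melanocytes was sequenced from 6 libraries, 3 of the BAP1 KO label and 3 of the WT label. Per the labels' protocols, libraries came from a TruSeq RNA v2 kit, which does not mark strand, and were read as single ends of 50 bases. Per the submitters' processing notes, GSNAP and GRCm38 were used; the version, the counting tool and the annotation were not given in the sources used here. As for values, per the file headers, the deposited count is the number of reads aligned uniquely to a gene model, and the deposited RPKM is adjusted by a size factor. Counts were used for all tests, and RPKM for comparing levels between genes.

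Of the gene IDs, 31049 matched a symbol in RefSeq's GRCm38.p6 table. Genes were filtered with filterByExpr (minimum count 10, minimum total 15), scaled by TMM and tested with edgeR 4.0.16 (glmQLFit, glmQLFTest) in R 4.3.3, without covariates, with Benjamini-Hochberg adjustment over 17121 genes. SE was taken as |log2 fold change| divided by √F. Replicates were numbered in submission order. No 2 libraries of a group were duplicates: their counts gave a chi-square per degree of freedom of 2.01 to 17.4. Overlaps of exons (both strands) and repeated 50-base sequences were read from GENCODE M21; an overlap above 10% is given where a gene is described.

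The members and lists were chosen with earlier results of these data known. Given in full are called members with no overlap between groups and a mean of 5 CPM or more in their higher group, and from each pathway list up to 3 called genes of at least 5 CPM with the largest change. Alternatives were DESeq2 1.42.0, limma-voom 3.58.1, other scalings and filters, and leaving out each library.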

Additional observations from a re-analysis of the deposited data

How the results depend on the processing

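Over 12 alternatives, 410 of 423 repeated log2 fold changes of members kept their direction and their side of the threshold. The call of Mmp8 was lost in 6, and calls were gained by Timp2 in 2 and by Adamts20 in 1, with the values in the text. The sign changed in 4, all of members not called in either fit: Mmp24 was at 6.6e-05 without a count filter and ranged from -0.0614 to 0.050 when single libraries were left out, Adamts20 ranged from -0.062 to 0.0013 when single libraries were left out, and Mmp19 was at -0.0097 with at least 5 CPM in 3 libraries. With at least 5 CPM required in 3 libraries, 27 members were tested; 2 were called higher, with 2 MMPs and 0 ADAMTS genes among them, and 22 lower. Under this filter Mmp23 and Adamts2 were not tested, Mmp8 lost its call (log2 0.11, adjusted p = 0.161), and Timp2 and Adamts20 gained lower calls. The other alternatives gave 4 to 5 members higher and 26 to 29 lower. Leaving out each library in turn gave 4 to 5 members higher and 26 lower, and over all genes 6506 to 7117 higher and 6915 to 7260.0 lower. DESeq2 called 4 members higher and 26 lower, and 6518 and 6812 over all genes; limma-voom called 5 and 26. Without a count filter 29 members were called lower, and the median log2 fold change of all genes was -0.18. No paired analysis was possible because the labels carry no replicate numbers. Depth limits the 7 untested members, which had at most 20 reads in any library.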
